A study of Drosophila melanogaster with 9 samples.

Results

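The genes described here encode the structural proteins of the insect cuticle and the Osiris proteins. They were taken by symbol from the probe sets that the platform annotation pairs with a single gene: every symbol that starts with Cpr, Twdl, Lcp, Ccp84, Edg or Osi followed by a digit or a capital letter. The rule found 111 genes among 10563 with a probe set of their own, and it used no measured value. The cuticle protein prefixes gave 89 genes, of which 59 were Cpr, 19 Twdl, 6 Lcp, 3 Ccp84 and 2 Edg. The Osi prefix gave 22 genes. For comparison, the RefSeq gene table lists 143 protein-coding genes with these prefixes, so that several Lcp and Ccp84 genes in particular had no probe set of their own and were not analysed here.

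Expression was measured on Affymetrix Drosophila Genome 2.0 arrays in cells sorted by fluorescence from dissociated stage 13 Drosophila melanogaster embryos, collected over 2 h, aged a further 8 h and kept at 25 °C. In ap_GFP the sorted cells expressed GFP from a muscle enhancer of apterous, which encodes a LIM-homeodomain factor that helps specify some body wall muscles. In slou_RFP they expressed RFP from a muscle enhancer of slouch (S59), which encodes a homeodomain factor with the same kind of role in other muscles. In twi_actin_GFP, the reference in both comparisons, the promoter of twist, the mesodermal bHLH gene, drove a fusion of actin and GFP. Each group had 3 arrays, each labelled a biological replicate, and all were labelled somatic mesoderm. According to the series' design text, 74% of ap_GFP cells, 87% of slou_RFP cells and 95% of twi_actin_GFP cells were positive when sorted again.

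The cuticle is a layered extracellular matrix of chitin and protein that epidermis, trachea, foregut and hindgut secrete at their apical surface. In the embryo it is deposited after the stage sampled here. Most Cpr, Lcp, Ccp84 and Edg proteins carry the Rebers and Riddiford consensus, a chitin-binding domain, whereas Twdl (Tweedle) proteins share another conserved domain and are found in barrier tissues. The Edg genes take their name from a response to ecdysone, the moulting steroid. Osiris proteins are secretory or membrane proteins conserved in insects and known from cuticle-forming epithelia, and most of their genes lie side by side on chromosome arm 3R, at the dosage-sensitive Triplo-lethal locus.

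Values are the deposited log2 signals per probe set, where a difference of 1 is a doubling, and are listed in the order of replicates 1, 2 and 3. The data hold no statement of presence or absence. A probe set was therefore placed by the median of its array, which lay between 4.47 and 4.61 over 16377 probe sets, and by the lower quartile, between 3.36 and 3.64. A difference was called where the adjusted p was below 0.05 (limma, Benjamini-Hochberg over all probe sets), and ± gives the standard error of that fit unless SD is written. Probes differ in brightness, so that a place against the array median or a rank by mean signal does not measure the amount of RNA of a gene.

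The muscle reporter arrays ap_GFP replicate 3 and slou_RFP replicate 2 stood apart from the other 4. Correlations between arrays of a group ran from 0.97 to 0.998 over probe sets, and the lowest belonged to slou_RFP replicate 2. Results that rest on these arrays are given with and without them. The mesoderm and myoblast list, with 12 of 15 genes measured, had a mean log2 signal of 10.24 to 10.38 on ap_GFP, 10.10 to 10.38 on slou_RFP and 8.39 to 8.54 on twi_actin_GFP. Of these 12 genes, 10 were called higher in each muscle reporter group than in twi_actin_GFP. Over all probe sets 9.78% were called higher in ap_GFP and 11.1% in slou_RFP. Among the 10, twi itself was higher by 2.32 ± 0.21 in ap_GFP (adjusted p = 9.27e-05).

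Many genes of these families had dim probe sets. Of the 111, 52 (46.8%) lay below the array median on all 9 arrays, against 31.2% of all genes with a probe set of their own, and 29 (26.1%) lay above it on all 9, against 55.3%. The families differed in this respect. Among Cpr genes 33 of 59 lay below the median throughout and 11 above, and both Edg genes lay below it. Among Twdl genes 4 of 19 lay below and 8 above. Among Osi genes 9 of 22 lay below and 7 above. All 111 genes were tested, since no filter on low values was applied.

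Against twi_actin_GFP, few cuticle protein genes differed, and the large falls were those of Cpr51A, Cpr49Ac and Cpr50Ca. In ap_GFP, 1 of 89 cuticle protein genes (1.12%) was called higher and 5 (5.62%) lower. Over all probe sets 9.78% were called higher and 12.2% lower in this comparison. After quantile normalization 5 cuticle protein genes were higher and 5 lower. Their median change was 0.17, against 0.11 for all probe sets. In slou_RFP, 8 cuticle protein genes (8.99%) were called higher and 5 (5.62%) lower, with 11.1% of all probe sets higher and 12.9% lower. The median change was 0.22, against 0.13 for all probe sets. The number called moved with single arrays: in ap_GFP it was 17 without slou_RFP replicate 2 and 3 without ap_GFP replicate 1 or replicate 2 or 3 of twi_actin_GFP. In slou_RFP it was 6 without slou_RFP replicate 1, 5 without twi_actin_GFP replicate 2 and 4 without twi_actin_GFP replicate 3. No share of all probe sets was taken after quantile normalization or with single arrays left out, so these counts have no background beside them.

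Among the Osiris genes, Osi15, Osi20 and Osi19 fell in both comparisons. In ap_GFP, 2 of 22 (9.09%) were called higher and 3 (13.6%) lower, near the 9.78% and 12.2% of all probe sets. In slou_RFP, 1 (4.55%) was called higher and 5 (22.7%) lower, beside 11.1% and 12.9% of all probe sets. After quantile normalization the counts were 1 higher and 3 lower in ap_GFP, and none higher and 4 lower in slou_RFP. Their median change was -0.10 in ap_GFP and -0.16 in slou_RFP, against 0.11 and 0.13 for all probe sets. These counts too moved with single arrays. In ap_GFP 9 Osiris genes were called without slou_RFP replicate 2, and 3 without twi_actin_GFP replicate 1 or replicate 3. In slou_RFP 10 were called without slou_RFP replicate 2, and 3 without replicate 1 or 3 of slou_RFP or replicate 2 or 3 of twi_actin_GFP. For these fits too, and after quantile normalization, no share of all probe sets was taken.

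The threshold named in the submitters' design text (a change of 1.7-fold or more and p below 0.05, not adjusted) left none of these genes higher in either comparison. In ap_GFP it took 4 cuticle protein genes and 5 Osiris genes as lower, with 4.68% of all probe sets higher and 9.48% lower. In slou_RFP it took 3 cuticle protein genes and 6 Osiris genes as lower, with 3.87% of all probe sets higher and 9.86% lower. Counting instead the genes whose 3 arrays all lay on one side of the 3 reference arrays, 29 cuticle protein genes were higher and 7 lower in ap_GFP, where 31% of all probe sets were higher and 17.7% lower by this measure. In slou_RFP 29 were higher and 5 lower, with 29.4% and 17.9% in the background. Among Osiris genes 3 were higher and 7 lower in ap_GFP, and 6 were higher and 7 lower in slou_RFP.

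**Figure D1:**
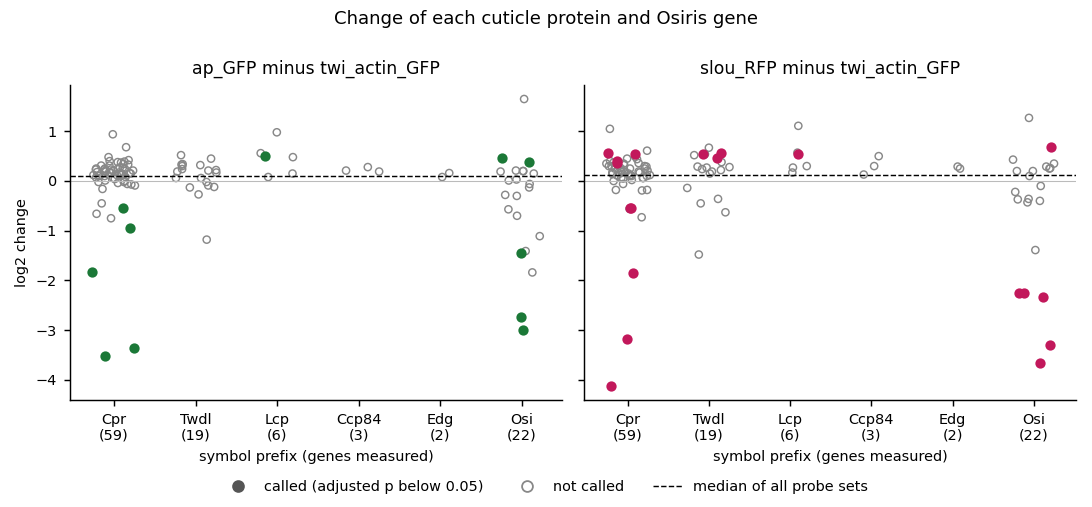
Differences in log2 signal from twi_actin_GFP for every gene of the 6 families, 1 point per gene, in ap_GFP and in slou_RFP. Most points lie within a narrow band around the median of all probe sets (0.11 in ap_GFP, 0.13 in slou_RFP), and the largest falls are Cpr and Osi genes, down to -4.12 for Cpr51A in slou_RFP.

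Across both comparisons, 21 of the 111 genes were called in at least 1, and 90 in neither. The share of all probe sets called in at least 1 was not taken, so this count is not read as more or fewer than elsewhere. In the single comparisons 9.78% of all probe sets were higher and 12.2% lower in ap_GFP, and 11.1% and 12.9% in slou_RFP. The comparisons share their 3 twi_actin_GFP arrays, so that their calls are not independent of each other. Called lower in both were Cpr49Ac, Cpr49Ag, Cpr50Ca, Cpr51A, Cpr78E, Osi15, Osi19 and Osi20, and Osi6 and Osi9 were called lower in slou_RFP. Called higher in both was Lcp65Aa. The falls ran from -0.54 to -4.12 and the rises from 0.36 to 0.68. Of the 11 genes called higher 7 lay below the array median on all 9 arrays, as did 1 of the 10 called lower. In bulk samples of sorted cells, fewer cells that express a gene and less RNA of it per cell cannot be told apart.

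Among the Cpr genes, Cpr49Ac showed the clearest separation of the groups. Its signal was 3.35, 3.34 and 3.51 on ap_GFP, 3.48, 3.75 and 3.51 on slou_RFP, and 6.94, 6.63 and 6.73 on twi_actin_GFP. All 3 reference arrays were far above all 6 muscle reporter arrays, which lay close together and near or under the lower quartile of their arrays. The difference was -3.37 ± 0.12 in ap_GFP (adjusted p = 9.45e-07), a 10.3-fold lower signal. In slou_RFP it was -3.19 ± 0.12 (adjusted p = 1.35e-06), or 9.1-fold lower. Leaving out each array in turn kept both calls, with differences of -3.44 to -3.28 and -3.27 to -3.10.

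Cpr50Ca gave 2.78, 2.97 and 3.18 on ap_GFP, 2.94, 2.97 and 2.93 on slou_RFP, and 4.81, 4.77 and 4.86 on twi_actin_GFP. All 6 muscle reporter arrays fell below their lower quartile, while the reference arrays sat just above their median. The difference was -1.84 ± 0.11 in ap_GFP (adjusted p = 1.09e-05) and -1.86 ± 0.11 in slou_RFP (adjusted p = 9.92e-06). Leaving out each array in turn kept both calls.

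Cpr51A had the largest difference of all 111 genes, and its muscle reporter arrays spread widely. Its signal was 4.65, 5.27 and 7.26 on ap_GFP, 4.08, 7.32 and 4.02 on slou_RFP, and 9.16, 9.17 and 9.43 on twi_actin_GFP. The groups did not overlap, but ap_GFP replicate 3 and slou_RFP replicate 2 stood about midway between the other muscle reporter arrays and the reference. Over all arrays the gene fell by 3.53 ± 0.92 in ap_GFP (adjusted p = 0.0256) and by 4.12 ± 0.92 in slou_RFP (adjusted p = 0.0127). Without both of these arrays the differences were -4.29 ± 0.17 (adjusted p = 1.15e-06) and -5.21 ± 0.17 (adjusted p = 4.17e-07). The smaller standard errors follow from leaving out the muscle reporter arrays that lay apart for this gene. The ap_GFP call was lost without ap_GFP replicate 1 or 2 or any single twi_actin_GFP array, with adjusted p between 0.0649 and 0.096.

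Smaller falls were seen for Cpr78E and Cpr49Ag. Cpr78E was bright on every array, with 6.95, 6.89 and 6.54 on ap_GFP, 7.32, 6.98 and 7.28 on slou_RFP, and 7.49, 8.02 and 7.72 on twi_actin_GFP. All muscle reporter arrays lay below all reference arrays, ap_GFP by 0.95 ± 0.17 on average (adjusted p = 0.00386) and slou_RFP by 0.55 ± 0.17 (adjusted p = 0.0466). The slou_RFP call was lost when any of 7 of the 9 arrays was left out, all but ap_GFP replicate 3 and twi_actin_GFP replicate 1, with adjusted p up to 0.151. It was also lost after quantile normalization (-0.27 ± 0.15, adjusted p = 0.255), in a fit of the 2 groups alone (adjusted p = 0.0666) and with an intensity trend (adjusted p = 0.0629). Cpr49Ag lay below the median on every array, at 3.77, 3.88 and 3.87 on ap_GFP, 3.76, 4.15 and 3.61 on slou_RFP, and 4.31, 4.35 and 4.5 on twi_actin_GFP. It fell by 0.54 ± 0.14 in both comparisons (adjusted p = 0.0215 in ap_GFP and 0.0212 in slou_RFP). The calls were lost without twi_actin_GFP replicate 2 or 3, without ap_GFP replicate 1 or 2 in ap_GFP, and without slou_RFP replicate 1 or 3 in slou_RFP, with adjusted p between 0.0523 and 0.0868.

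**Figure D2:**
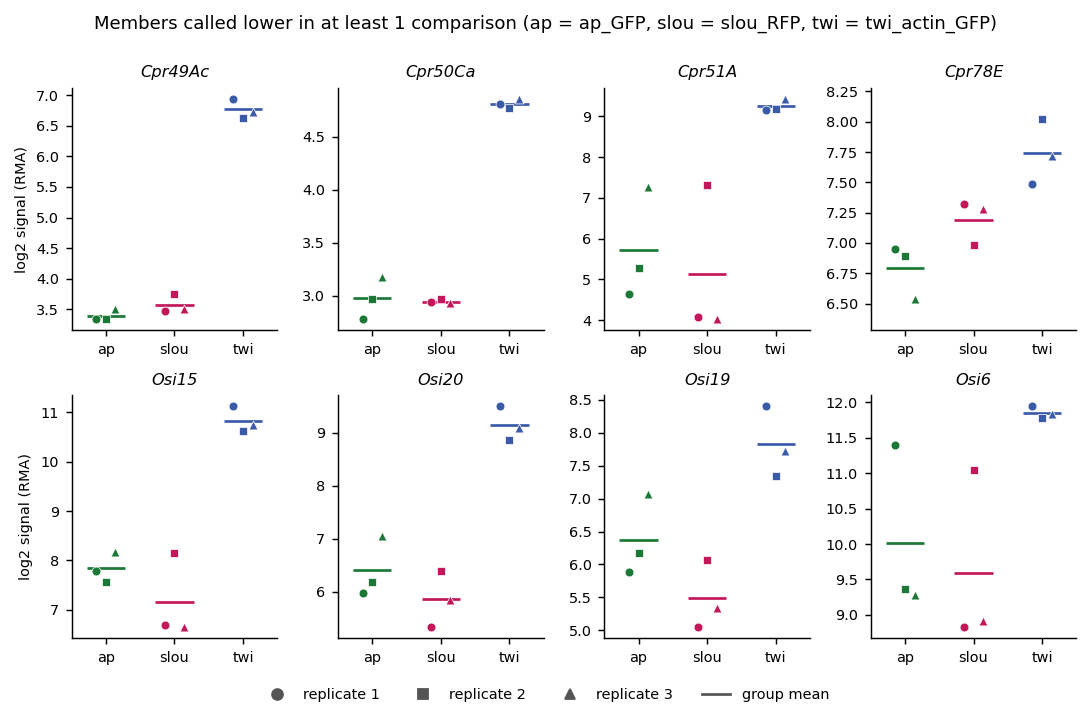
Log2 signal on each of the 9 arrays for 8 genes called lower, 1 panel per gene, with points for single arrays and a bar for the mean of each group of 3. For Cpr49Ac and Cpr50Ca the 6 muscle reporter arrays lie close together below the reference arrays, whereas for Cpr51A ap_GFP replicate 3 (7.26) and slou_RFP replicate 2 (7.32) lie above the other 4 muscle reporter arrays.

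The other 2 Cpr genes of highest mean signal, Cpr47Ef and Cpr64Ad, did not separate the groups. Cpr47Ef gave 6.71, 6.64 and 7.77 on ap_GFP, 6.62, 7.87 and 6.66 on slou_RFP, and 7.23, 8.03 and 8.09 on twi_actin_GFP. The groups overlapped, and the differences of -0.75 ± 0.43 in ap_GFP (adjusted p = 0.249) and -0.73 ± 0.43 in slou_RFP (adjusted p = 0.228) were not called. A second, dimmer probe set of Cpr47Ef differed by 0.01 in ap_GFP and by 0.25 in slou_RFP, and neither was called. Cpr64Ad ranged from 6.10 to 7.71, with its lowest and its highest value both on twi_actin_GFP, and its differences were 0.07 ± 0.42 and 0.26 ± 0.42 (adjusted p = 0.92 and 0.665).

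The 4 Cpr genes called higher in slou_RFP changed little and were dim. They were Cpr76Bb, Cpr67Fb, Cpr65Aw and Cpr49Af, and all 4 lay below the array median on every array. Cpr76Bb gave 4.13, 4.11 and 3.88 on slou_RFP and 3.47, 3.44 and 3.48 on twi_actin_GFP, with 3.88, 3.6 and 3.83 on ap_GFP. The slou_RFP arrays were all above the reference, by 0.57 ± 0.11 (adjusted p = 0.0053), and the ap_GFP difference of 0.31 ± 0.11 was not called (adjusted p = 0.0772). Cpr67Fb was 0.55 ± 0.14 higher in slou_RFP (adjusted p = 0.0237), a call lost without twi_actin_GFP replicate 2 or 3 (adjusted p = 0.0747 and 0.0917). Cpr65Aw (0.41 ± 0.13, adjusted p = 0.0493) lost its call when any single array was left out, with adjusted p up to 0.141. Cpr49Af (0.36 ± 0.11, adjusted p = 0.0399) lost it without ap_GFP replicate 2 or 3, slou_RFP replicate 1 or 3, or twi_actin_GFP replicate 2 or 3. Of all 7129 probe sets below the array median on all 9 arrays, 6.34% were called higher and 1.21% lower in slou_RFP.

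Over all 9 arrays no Tweedle gene was called lower in either comparison, and 3 of 19 were called higher in slou_RFP. Estimates were below 0 for 6 genes in ap_GFP and 5 in slou_RFP, the lowest being those of TwdlE (-1.18 and -1.48), which was called lower in both once ap_GFP replicate 3 and slou_RFP replicate 2 were left out, as given below. TwdlH gave 5.80, 5.56 and 5.55 on ap_GFP, 5.68, 6.08 and 5.78 on slou_RFP, and 5.39, 5.36 and 5.15 on twi_actin_GFP. All 6 muscle reporter arrays were above all 3 reference arrays. The difference was 0.55 ± 0.13 in slou_RFP (adjusted p = 0.0175), lost without twi_actin_GFP replicate 3 (adjusted p = 0.0745), and 0.34 ± 0.13 in ap_GFP (adjusted p = 0.105). TwdlC gave 5.62, 5.39 and 5.42 on slou_RFP and 5.19, 4.86 and 5.0 on twi_actin_GFP, with the ap_GFP arrays between 5.30 and 5.44. These groups did not overlap either. The slou_RFP difference of TwdlC was 0.46 ± 0.11 (adjusted p = 0.0177), and it was lost without slou_RFP replicate 1 or replicate 2 or 3 of twi_actin_GFP (adjusted p = 0.0651 to 0.0698). TwdlK differed by 0.56 ± 0.17 in slou_RFP (adjusted p = 0.0393), a call lost when any array but ap_GFP replicate 1 and twi_actin_GFP replicate 1 was left out. In ap_GFP the TwdlC difference was 0.33 ± 0.11 (adjusted p = 0.0647) and that of TwdlK was 0.45 ± 0.17 (adjusted p = 0.0887).

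TwdlW and TwdlF are the other Tweedle genes with high mean signals. TwdlF ranged from 5.31 to 6.46 on ap_GFP, from 5.12 to 6.76 on slou_RFP and from 5.27 to 6.84 on twi_actin_GFP. Its groups overlapped throughout, and the differences were -0.27 ± 0.53 and -0.36 ± 0.53 (adjusted p = 0.735 and 0.629). The values of TwdlW follow below with those of the arrays that stood apart.

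Of the larval cuticle protein genes, Lcp65Aa was the only 1 of 6 called over all 9 arrays, and it was called higher in both comparisons. Its signal was 7.23, 7.0 and 7.30 on ap_GFP, 7.39, 7.21 and 7.08 on slou_RFP, and 6.89, 6.60 and 6.54 on twi_actin_GFP. All 6 muscle reporter arrays lay above the reference. The rise was 0.50 ± 0.13 in ap_GFP (adjusted p = 0.0291) and 0.55 ± 0.13 in slou_RFP (adjusted p = 0.0189). A second probe set of the gene, near the array median, gave 0.29 (adjusted p = 0.0951) and 0.34 (adjusted p = 0.0529). The ap_GFP call was lost without ap_GFP replicate 1 or 3 or twi_actin_GFP replicate 2 or 3 (adjusted p = 0.0885 to 0.112). The slou_RFP call was lost without slou_RFP replicate 1 or twi_actin_GFP replicate 2 or 3 (adjusted p = 0.0678 to 0.0794). Lcp65Ad ranged from 3.69 to 4.98 on the muscle reporter arrays and from 3.82 to 3.97 on twi_actin_GFP, and its differences of 0.56 ± 0.30 and 0.57 ± 0.30 were not called (adjusted p = 0.222 and 0.192). Without ap_GFP replicate 3 and slou_RFP replicate 2 it was called higher in both, by 0.57 ± 0.17 (adjusted p = 0.0283) and 0.95 ± 0.17 (adjusted p = 0.00245). Lcp65Ac was then called higher in slou_RFP, by 0.32 ± 0.10 (adjusted p = 0.0331). In that fit 20% of all probe sets were higher in ap_GFP and 20.7% in slou_RFP. The omitted arrays held the lowest Lcp65Ad signal (3.69, slou_RFP replicate 2) and the highest Lcp65Ac signal (4.23, ap_GFP replicate 3). Leaving them out was bound to narrow the spread, so these calls are no separate support for a rise. Lcp9 stayed between 3.79 and 4.17 on all 9 arrays, with differences of 0.15 and 0.17 that were not called.

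No Ccp84 or Edg gene was called. Ccp84Ac ranged from 5.25 to 5.71 over the 9 arrays, with differences of 0.19 ± 0.11 in ap_GFP (adjusted p = 0.249) and 0.30 ± 0.11 in slou_RFP (adjusted p = 0.0741). Ccp84Ae ranged from 5.21 to 6.18, and its differences were 0.28 ± 0.17 (adjusted p = 0.261) and 0.50 ± 0.17 (adjusted p = 0.0611). For both genes the 3 slou_RFP arrays lay above the 3 reference arrays without reaching the threshold. Ccp84Ag was below the array median throughout, at 2.97 to 4.11. The ecdysone-dependent genes Edg78E (3.33 to 3.76) and Edg84A (4.00 to 4.48) were also below it on all 9 arrays, and their differences ran from 0.08 to 0.29.

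The Osiris genes gave the other large falls, and Osi15 the largest of them. Osi15 gave 7.78, 7.57 and 8.16 on ap_GFP, 6.70, 8.14 and 6.65 on slou_RFP, and 11.12, 10.62 and 10.74 on twi_actin_GFP. The lowest reference array was above the highest muscle reporter array by more than 2 log2 units. The gene fell by 2.99 ± 0.38 in ap_GFP (adjusted p = 0.000573), a 7.96-fold difference, and by 3.67 ± 0.38 in slou_RFP (adjusted p = 0.000188), a 12.7-fold difference. All muscle reporter signals of Osi15 were still well above their array medians, in contrast to Cpr49Ac and Cpr50Ca.

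Osi20 gave 5.99, 6.19 and 7.06 on ap_GFP, 5.34, 6.39 and 5.85 on slou_RFP, and 9.50, 8.87 and 9.10 on twi_actin_GFP. It fell by 2.74 ± 0.34 in ap_GFP (adjusted p = 0.0005) and by 3.30 ± 0.34 in slou_RFP (adjusted p = 0.000179). The groups were again widely separated. The calls of Osi15 and Osi20 held in both comparisons when any single array was left out.

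Osi19 gave 5.89, 6.17 and 7.07 on ap_GFP, 5.05, 6.06 and 5.34 on slou_RFP, and 8.4, 7.35 and 7.72 on twi_actin_GFP. The groups did not overlap with the reference, although ap_GFP replicate 3 came within 0.3 log2 units of the lowest reference array. Osi19 fell by 2.34 ± 0.39 in slou_RFP (adjusted p = 0.00269) and by 1.45 ± 0.39 in ap_GFP (adjusted p = 0.0285). The ap_GFP call was lost without ap_GFP replicate 1 or 2 or twi_actin_GFP replicate 1 or 3 (adjusted p = 0.0743 to 0.103), and after quantile normalization (adjusted p = 0.0777). The slou_RFP call held without each of the 9 arrays.

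Osi6 and Osi9 were called lower in slou_RFP, and their muscle reporter arrays scattered widely. Osi6 was bright on all arrays, at 11.39, 9.36 and 9.28 on ap_GFP, 8.83, 11.05 and 8.91 on slou_RFP, and 11.94, 11.78 and 11.83 on twi_actin_GFP. The 3 reference arrays agreed closely, and 1 array of each muscle reporter, ap_GFP replicate 1 and slou_RFP replicate 2, came near them. The difference was -2.26 ± 0.69 in slou_RFP (adjusted p = 0.0451), lost without ap_GFP replicate 2, slou_RFP replicate 1 or 3, or any single twi_actin_GFP array (adjusted p = 0.0585 to 0.126), and after quantile normalization (adjusted p = 0.0526). In ap_GFP it was -1.84 ± 0.69 (adjusted p = 0.0936), and it was called without ap_GFP replicate 1 (adjusted p = 0.0271) or slou_RFP replicate 2 (adjusted p = 0.023). Osi9 gave 4.66, 4.92 and 6.48 on ap_GFP, 3.78, 5.24 and 3.62 on slou_RFP, and 7.10, 6.18 and 6.10 on twi_actin_GFP. The ap_GFP arrays overlapped the reference and the slou_RFP arrays did not. The slou_RFP fall was 2.25 ± 0.57 (adjusted p = 0.0226), lost without slou_RFP replicate 1 or 3 or any single twi_actin_GFP array (adjusted p = 0.0511 to 0.0741), and the ap_GFP difference was -1.11 ± 0.57 (adjusted p = 0.207).

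Osi14 lies between Osi9 and Osi15 on chromosome arm 3R and was among the 3 Osiris genes with the highest mean signal. It gave 9.34, 6.78 and 8.07 on ap_GFP, 6.96, 9.49 and 6.94 on slou_RFP, and 8.34, 8.39 and 7.87 on twi_actin_GFP. Its groups overlapped, with differences of -0.13 ± 0.78 and -0.40 ± 0.78 (adjusted p = 0.917 and 0.711). ap_GFP replicate 1 and slou_RFP replicate 2, the arrays on which Osi6 came near the reference, were also the highest for Osi14. The 3 Osiris genes called higher were all below the array median on every array. Osi1 rose by 0.46 ± 0.10 in ap_GFP (adjusted p = 0.00975), with 3.61, 3.68 and 3.50 on ap_GFP and 3.25, 3.01 and 3.15 on twi_actin_GFP, and its call held without each array in turn. Osi13 was 0.38 ± 0.11 higher in ap_GFP (adjusted p = 0.0335), a call lost when any of 6 arrays was left out: ap_GFP replicate 1 or 3, slou_RFP replicate 1 or any twi_actin_GFP array. Osi4 was 0.68 ± 0.20 higher in slou_RFP (adjusted p = 0.0376), a call lost without ap_GFP replicate 2, slou_RFP replicate 1 or 3, or twi_actin_GFP replicate 2 or 3.

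In the order of genes on chromosome arm 3R given by RefSeq (Release 6 plus ISO1 MT), 22 Osiris genes from Osi1 to Osi20 form 1 run, in which up to 4 other protein-coding genes were allowed between neighbours. Of these 22, 20 were measured. The genes called lower did not form 1 block within it. Osi15 has as neighbours Osi14 and Osi16, which were not called, while Osi19 and Osi20 are next to each other at the end of the run. Osi6 and Osi9 lie nearer its start, separated by Osi7 (-0.30 in ap_GFP and -0.36 in slou_RFP) and Osi8 (0.03 and -0.10), also not called. Osi22 and Osi23, outside the run, were below the array median on all arrays and not called. Osi23, also known as gore-tex, is required for the nanopores of olfactory sensilla.

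**Figure D3:**
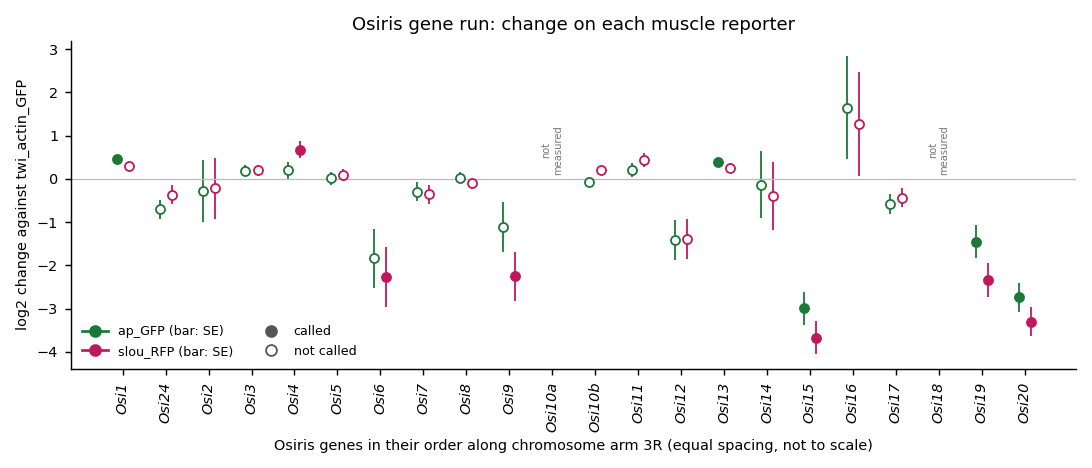
Differences in log2 signal from twi_actin_GFP for the 20 measured Osiris genes of the run on chromosome arm 3R, in gene order from Osi1 to Osi20, with error bars of 1 standard error. Osi15, Osi19 and Osi20 are lower in both comparisons, Osi6 and Osi9 are called lower in slou_RFP, and Osi16 has a wide error bar (1.65 ± 1.20 in ap_GFP).

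Neighbouring cuticle protein genes also differed from one another. In the run of 8 Cpr49A genes on 2R, 7 were measured, and Cpr49Ac and Cpr49Ag were called lower in both comparisons while Cpr49Af was called higher in slou_RFP. In the run of 17 Lcp65 and Cpr65A genes on 3L, 9 were measured, none was called lower, and Lcp65Aa and Cpr65Aw were called higher. The run of 13 Tweedle genes from TwdlM to TwdlQ on 3R had 9 measured, none lower and 2 higher in slou_RFP.

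Many genes of these families shared a pattern that followed neither reporter: they were high on ap_GFP replicate 3 and slou_RFP replicate 2 and low on the other 4 muscle reporter arrays. Both arrays lay above the other 4 for 41 of the 111 genes (36.9%), against 18.2% of all probe sets. They lay below the other 4 for 6 genes (5.41%), against 18.5%. The pattern was found for 21 of 59 Cpr genes, 9 of 19 Twdl genes and 8 of 22 Osi genes. For 9 genes (8.11%) the lower of the 2 arrays exceeded the highest of the other 4 by at least 1 log2 unit, against 0.843% of all probe sets. slou_RFP replicate 2 held the highest of the 9 values for 40 of 89 cuticle protein genes (44.9%), against 27.5% of all probe sets. Among Osiris genes it did so for only 5 of 22 (22.7%), while twi_actin_GFP replicate 1 was highest for 7 (31.8%). The cause of this difference between arrays was not tested.

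Osi16 showed the widest gap of this kind. It gave 4.54, 3.93 and 8.07 on ap_GFP, 3.93, 7.50 and 3.98 on slou_RFP, and 3.88, 3.98 and 3.74 on twi_actin_GFP, so that 7 arrays lay near or below the array median and 2 far above it. The group differences, 1.65 ± 1.20 in ap_GFP and 1.27 ± 1.20 in slou_RFP (adjusted p = 0.359 and 0.44), were smaller than 2 standard errors. Cpr62Bb behaved the same way, with 4.18, 4.43 and 6.83 on ap_GFP, 4.31, 7.14 and 4.31 on slou_RFP, and 4.25, 4.03 and 4.35 on twi_actin_GFP. Lcp65Ag3 gave 3.54, 3.40 and 5.61, then 3.17, 6.39 and 3.35, and on twi_actin_GFP 3.28, 3.07 and 3.26. For these 3 genes the reference arrays were as low as the other 4 muscle reporter arrays.

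In a second group of genes the reference arrays lay between the low and the high level or with the high arrays. TwdlE gave 3.02, 3.13 and 5.61 on ap_GFP, 2.49, 5.51 and 2.85 on slou_RFP, and 5.75, 4.21 and 5.34 on twi_actin_GFP. TwdlW gave 5.74, 5.07 and 7.28 on ap_GFP, 5.53, 8.03 and 5.18 on slou_RFP, and 6.10, 5.83 and 5.99 on twi_actin_GFP. Osi2 gave 4.31, 4.31 and 5.62, then 4.14, 6.61 and 3.66, and on twi_actin_GFP 5.41, 4.83 and 4.83. None of the 3 was called over all arrays. Cpr65Ea (6.72 on ap_GFP replicate 3 and 7.67 on slou_RFP replicate 2, 5.02 to 5.44 on the other 4 and 5.14 to 6.44 on twi_actin_GFP) and Cpr47Ef, given above, belong here too. For Cpr51A, the ninth gene, the reference arrays lay above these 2 arrays.

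**Figure D4:**
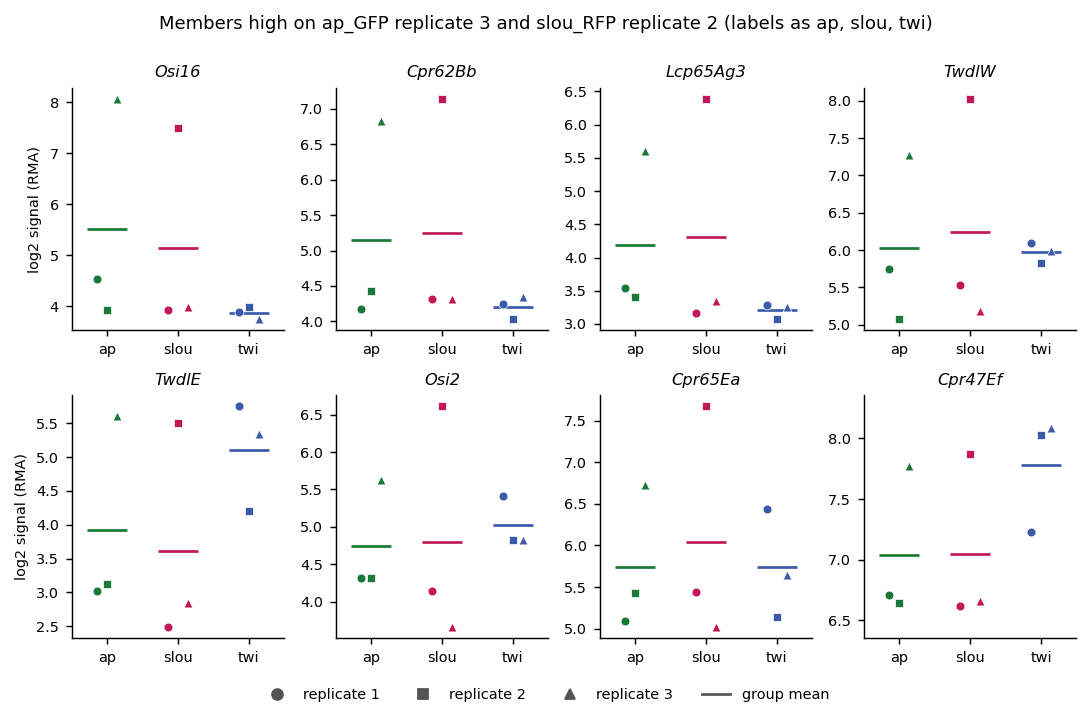
Log2 signal on each of the 9 arrays for 8 genes that were higher on ap_GFP replicate 3 and slou_RFP replicate 2 than on the other 4 muscle reporter arrays by at least 1 log2 unit. For Osi16, Cpr62Bb and Lcp65Ag3 the twi_actin_GFP arrays are low, and for TwdlE and Cpr47Ef 2 of the 3 lie near or above these arrays.

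Without ap_GFP replicate 3 and slou_RFP replicate 2, more genes of both kinds were called, as was the case over all probe sets. In ap_GFP 9 cuticle protein genes were then called higher and 8 lower, and 2 Osiris genes higher and 9 lower, with 20% of all probe sets higher and 16.5% lower. In slou_RFP 10 cuticle protein genes were higher and 8 lower, and 2 Osiris genes higher and 9 lower, with 20.7% and 16.9% in the background. The 9 Osiris genes called lower in this fit were the same in both comparisons: Osi2, Osi6, Osi9, Osi12, Osi15, Osi17, Osi19, Osi20 and Osi24. Both comparisons share their twi_actin_GFP arrays, so the shared calls are no separate support for a fall. Osi12, which gave 4.19, 3.92 and 5.11 on ap_GFP, 3.92, 5.53 and 3.81 on slou_RFP, and 6.08, 5.71 and 5.64 on twi_actin_GFP, moved from -1.41 ± 0.47 (adjusted p = 0.064) to -1.76 ± 0.15 (adjusted p = 3.84e-05) in ap_GFP. Osi2, Osi9, Osi12, Osi15, Osi20, TwdlE, Cpr47Ef and TwdlW were higher on both omitted arrays than on the other muscle reporter arrays. Leaving these arrays out was therefore bound to narrow the spread of these genes, and the smaller standard errors are no separate support for a fall. TwdlE moved from -1.18 ± 0.93 (adjusted p = 0.393) to -2.03 ± 0.38 (adjusted p = 0.00369) in ap_GFP, and reached -2.43 ± 0.38 (adjusted p = 0.00135) in slou_RFP. Cpr47Ef reached -1.11 ± 0.23 (adjusted p = 0.00633) and -1.14 ± 0.23 (adjusted p = 0.00546). TwdlW changed sign, from 0.06 ± 0.77 to -0.57 ± 0.20 in ap_GFP (adjusted p = 0.0552) and from 0.28 ± 0.77 to -0.62 ± 0.20 in slou_RFP, where it was then called lower (adjusted p = 0.0394). Osi16, Cpr62Bb, Cpr65Ea and Lcp65Ag3 were not called without the arrays on which they were high.

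Between the muscle reporters themselves, no gene of these families was called, and none of all probe sets was (0%). At an unadjusted p below 0.05 there were 3 cuticle protein genes (Cpr12A, Cpr76Bb and Cpr78E) and 3 Osiris genes (Osi4, Osi10b and Osi19), against 2.63% of all probe sets. The groups did not overlap for 4 genes, Cpr12A, Cpr78E, Osi4 and Osi10b, all lower in ap_GFP, with 7.11% of all probe sets in either direction. The submitters' threshold took 1 gene, Osi19, with 0.0672% of all probe sets. Osi19 was 0.89 higher in ap_GFP, with a 95% confidence interval of 0.01 to 1.78 and an adjusted p of 0.994. The smallest unadjusted p-values belonged to Cpr12A, Osi10b and Cpr76Bb, with differences of -0.25, -0.25 and -0.27 and an adjusted p of 0.994 each, and all 3 genes were below the array median on every array. Of the 10 genes called lower against twi_actin_GFP, Osi19 and Cpr78E had 95% intervals of the difference between the reporters that left out 0, and the other 8 had not.

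Other genes that build and secrete cuticle were taken as lists by function and set beside these families. Of the genes of chitin synthesis, assembly and turnover, 22 of 29 were measured. In ap_GFP 14 of them were lower and 1 higher, and in slou_RFP 14 were lower and none higher, with medians of -1.11 and -1.05. For this and the following lists, 9.78% of all probe sets were higher and 12.2% lower in ap_GFP. In slou_RFP the shares were 11.1% and 12.9%, and small counts near these shares say nothing about a list in particular. The chitinases Cht10 and Cht5 fell by 2.35 ± 0.14 and 2.32 ± 0.18 in ap_GFP (adjusted p = 1.33e-05 and 4.38e-05). Cda4, a chitin deacetylase, fell by 3.05 ± 0.25, and the chitinase-like growth factor Idgf4 by 4.24 ± 0.38. Among zona pellucida and other apical matrix genes, 6 of 11 measured were lower and 1 higher in each comparison, with dy (Dusky) at -4.29 ± 0.41 in ap_GFP and -4.13 ± 0.41 in slou_RFP. Of the tanning and crosslinking genes 3 of 9 were lower in each and none higher, among them t (tan) at -2.91 ± 0.18 in ap_GFP and amd, which is related to dopa decarboxylase, at -1.40 ± 0.29. Of the cuticle proteins without these prefixes, none of 6 was lower, 1 was higher in ap_GFP and 2 in slou_RFP. Of these, resilin, the elastic cuticle protein, rose by 0.63 ± 0.16 in ap_GFP (adjusted p = 0.0233) and by 0.69 ± 0.16 in slou_RFP (adjusted p = 0.0144), and Vajk2 rose by 0.33 ± 0.10 in slou_RFP (adjusted p = 0.0416).

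Regulators upstream of cuticle formation were measured as well. Of 8 ecdysone response genes 1 was lower in ap_GFP and 2 in slou_RFP, and none was higher, where 12.2% and 12.9% of all probe sets were lower. The receptor gene EcR fell by 0.45 ± 0.10 in ap_GFP (adjusted p = 0.00926) and by 0.44 ± 0.10 in slou_RFP (adjusted p = 0.0112), and Hr4 fell by 1.53 ± 0.47 in slou_RFP (adjusted p = 0.0442). None of the 6 ecdysone synthesis genes was called in either comparison. Of 11 epidermal regulators and denticle genes, 7 were lower in ap_GFP and 8 in slou_RFP, none was higher. The denticle gene sha fell by 1.00 ± 0.10 in ap_GFP and by 1.23 ± 0.10 in slou_RFP, and ovo, whose epidermal product directs denticle formation, by 1.32 ± 0.26 and 1.10 ± 0.26.

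Most measured markers of the tissues that make cuticle were higher on twi_actin_GFP. The Cpr and Osi genes called lower in the muscle reporters were high in the same group, which follows from how they were called. The epidermal list had a mean log2 signal of 6.47 to 7.02 on ap_GFP, 6.60 to 6.83 on slou_RFP and 7.44 to 7.74 on twi_actin_GFP. The tracheal list, with 7 of 10 measured, lay at 6.32 to 6.49, 6.15 to 6.57 and 7.95 to 8.52. Its genes trh and btl were not measured, and only uif and kni of those measured stand in no other list here. The tracheal list therefore largely repeats the chitin, apical matrix and epidermal lists. Here 7 genes were lower in ap_GFP and 6 in slou_RFP, where 12.2% and 12.9% of all probe sets were lower. Gasp, a chitin-binding protein of the tracheal lumen, fell by 4.07 ± 0.66 and by 4.32 ± 0.66. The epithelial junction list, with 8 of 11 measured, lay at 8.23 to 8.59, 8.46 to 8.55 and 8.95 to 9.18. In each comparison 7 of its genes were lower, and 1 was higher in slou_RFP. The higher gene was cora, at 1.29 ± 0.40 (adjusted p = 0.0471), with 1.22 ± 0.40 in ap_GFP (adjusted p = 0.0613). The epidermal regulator grh differed by -0.09 ± 0.29 in both comparisons and was not called. Both cora and grh were chosen after their values were seen. No marker can be read as absent, since the values hold no zero and no detection call. The part of epidermal and tracheal cells in the differences of the Cpr and Osi genes was not tested. On ap_GFP replicate 3 and slou_RFP replicate 2, the arrays with high signals of many cuticle protein genes, the epidermal list did not stand above the other muscle reporter arrays: its median deviation from each gene's 9-array mean was -0.41 and -0.52, against -0.27 to 0.01 on the other 4. For the tracheal list it was -0.67 and -0.35, against -0.66 to -0.37, and for the chitin list -0.40 and -0.18, against -0.59 to -0.40. The tanning and crosslinking list lay above the other 4 on both arrays, at -0.01 and 0.07, against -0.16 to -0.05. So did the cuticle proteins without these prefixes (0.16 and 0.13, against -0.09 to 0.08) and ecdysone synthesis (0.04 and 0.37, against -0.04 to 0.02). The apical matrix, junction, ecdysone response and mesoderm lists did not do so on both. Single genes of the chitin and tracheal lists went both ways on the same arrays. Gasp gave 8.70 and 9.16, against 6.71 to 7.73 on the other 4, and Idgf4 gave 8.22 and 8.90, against 7.37 to 7.54. The tracheal gene uif was lower, at 4.26 and 4.01, against 4.5 to 5.01. So were kni (5.23 and 5.18, against 5.44 to 5.92) and vvl (5.44 and 5.73, against 6.14 to 6.39), chosen after their values were seen. Whether epidermal or tracheal cells had a part in the signals of these 2 arrays was not tested.

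**Figure D5:**
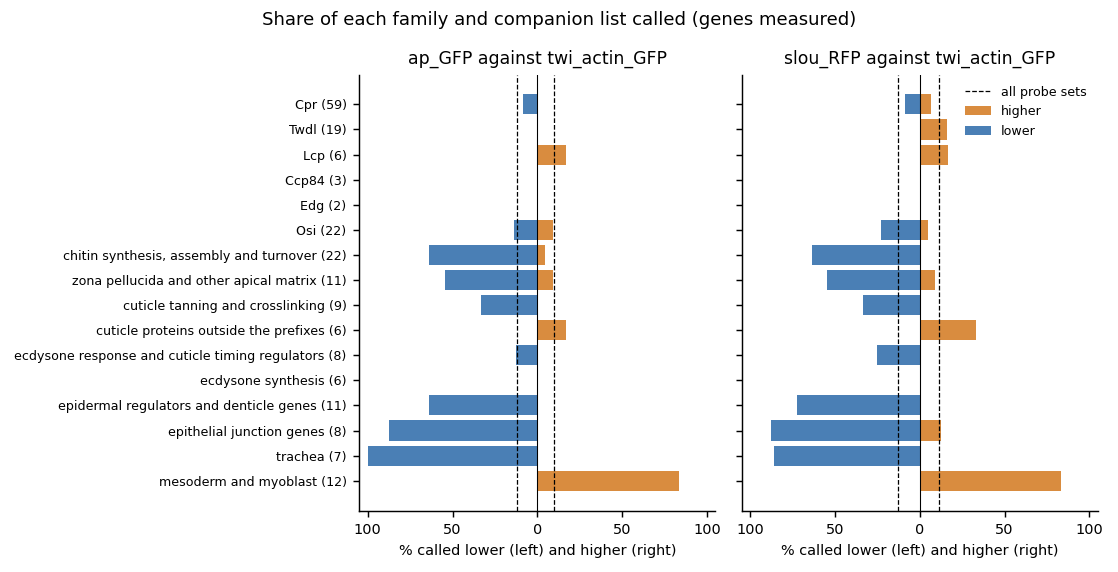
Share of measured genes called higher (right of 0) and lower (left of 0) than twi_actin_GFP for the 6 families and the 10 companion lists, in percent, in ap_GFP and slou_RFP, with dashed lines at the share of all probe sets (9.78% higher and 12.2% lower in ap_GFP, 11.1% and 12.9% in slou_RFP). Chitin, apical matrix, epidermal, junction and tracheal genes were mostly called lower, and the cuticle protein families were not.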

How the data were processed

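The authors deposited 1 log2 value for each probe set and array (Affymetrix Drosophila Genome 2.0, 9 arrays), made with RMA in Partek per the submitters' processing notes. Their version is not given in the sources used here. RMA subtracts background, scales the arrays to a common distribution and combines the probes of each set. It pulls dim signals together, so that differences of dim genes tend to be understated. Probe sets were named through the platform annotation (11899 with 1 gene, 353 with several, 4125 unlisted), and where a gene had several, its brightest probe set on average over the 9 arrays was used. This concerned Cpr47Ef and Lcp65Aa. Of the probe sets shared between genes 5 involved a member and were kept out of the counts. All 111 symbols were found in the RefSeq table, used for names and gene order only.

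Groups came from sample titles, which label each array a biological replicate. All 9 arrays and 16377 probe sets entered 1 limma 3.58.1 model of 3 group means (R 4.3.3, eBayes, no covariate, no filter), with Benjamini-Hochberg adjustment over all probe sets and a call at an adjusted p below 0.05. The procedure was tested on simulated data. With 3 arrays a group, the number of arrays limits the precision. Alternatives were quantile normalization, a filter on a mean log2 below 4.55, 2 groups only, an intensity trend, array weights, the mean of a gene's probe sets, a replicate block, the submitters' threshold, each array left out, and ap_GFP replicate 3 with slou_RFP replicate 2 left out.

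The members and lists were chosen with earlier results of these data known. Named were called genes, the 3 per prefix with the highest mean signal, the 3 with the smallest unadjusted p between the muscle reporters, and in each list up to 4 with the smallest adjusted p in ap_GFP. Osi2, Osi7, Osi8, Osi12, Osi16, Osi17, Osi22, Osi23, Osi24, Cpr62Bb, Cpr65Ea, Lcp65Ac, Lcp65Ag3 and TwdlE lie outside this rule and were chosen after their values were seen. Some lists share genes, such as Gasp, serp and verm of the chitin and tracheal lists. Sequences were not used here.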

Additional observations from a re-analysis of the deposited data

Results flagged for a closer look

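A probe set that the platform annotation pairs with both Obp57d, an odorant-binding protein gene, and Cpr57A lay outside the comparisons because it names no single gene. It was higher than twi_actin_GFP in both muscle reporter groups, by 0.87 ± 0.13 in ap_GFP (adjusted p = 0.00133, limma) and by 1.20 ± 0.13 in slou_RFP (adjusted p = 0.000218). Its signal was 6.29, 6.30 and 6.42 on ap_GFP, 6.52, 6.86 and 6.62 on slou_RFP, and 5.69, 5.34 and 5.37 on twi_actin_GFP, so that all 6 muscle reporter arrays lay above all 3 reference arrays. A second probe set shared by the same genes, below the array median throughout, was higher by 0.46 ± 0.14 in ap_GFP (adjusted p = 0.0423), and its difference of 0.34 ± 0.14 in slou_RFP was not called (adjusted p = 0.103). Which of the genes gave the signal was not tested. Groups of 3 arrays are too small for the check of outlying samples used here.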

How the results depend on the processing

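Of 30 called changes, 11 kept their call in every alternative run, 18 for each but 17 for Cpr50Ca, which the filter on low values removes, and none reversed in any: Cpr49Ac, Cpr50Ca, Osi15 and Osi20 in both comparisons, Cpr78E in ap_GFP, and Cpr51A and Osi19 in slou_RFP. The count of cuticle protein genes called in ap_GFP (6) became 10 after quantile normalization, 11 with the 2 groups alone, 19 with array weights and 17 without ap_GFP replicate 3 and slou_RFP replicate 2 together. Leaving out each array in turn gave 3 to 17. In slou_RFP (13) it became 8 with the filter, which keeps 37 of these genes, 7 with the 2 groups alone, 34 with array weights and 3 at the submitters' threshold, and leaving out each array gave 4 to 13. The count of Osiris genes called in ap_GFP (5) became 8 with the 2 groups alone, 11 with array weights and 11 without both arrays, with 3 to 9 when each array was left out. In slou_RFP (6) it became 16 with array weights and 11 without both arrays, with 3 to 10 when each was left out. Between the muscle reporters the cuticle count stayed at 0 in all 18, and the Osiris count of 0 became 1 at the submitters' threshold. Shares of all probe sets were taken only for the main fit, the submitters' threshold and the fit without both arrays. In the other runs the counts cannot be read against a background, and a rise or fall of them says nothing about these families in particular.

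Of 9 same-numbered pairs of arrays, 2 had a correlation of deviations from the group mean over 0.1 (range -0.618 to 0.491). The largest correlation between arrays of different groups, 0.668, joined ap_GFP replicate 3 and slou_RFP replicate 2, which stood apart. Deviations from a mean of 3 arrays also depend on each other, so the check cannot show that the samples were unpaired. With the replicate block the counts were 7 cuticle and 3 Osiris genes in ap_GFP, and 11 and 4 in slou_RFP, with no share of all probe sets taken. Quantile normalization moved the median change of all probe sets by -0.06 in ap_GFP and -0.07 in slou_RFP. The causes of these shifts were not tested.

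Dim probe sets limit the families: 52 of 111 genes lay below the array median on all 9 arrays, where the values alone do not show whether a transcript was present.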

Other observations

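The shared probe sets of Ccp84Aa with Ccp84Ab, Cpr65Ax1 with Cpr65Ax2, and Cpr67Fa1 with Cpr67Fa2 cannot be assigned to a single gene of each pair. They ranged from 2.74 to 3.27, from 3.84 to 4.81 and from 5.07 to 6.02 over the 9 arrays, and none was called in any comparison. The largest difference among them was 0.40 ± 0.21 for Cpr65Ax1 and Cpr65Ax2 in slou_RFP (adjusted p = 0.192, limma).

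TwdlG, TwdlD and TwdlT also varied widely without separating the groups. TwdlG gave 6.15, 4.46 and 5.97 on ap_GFP, 4.07, 7.03 and 4.47 on slou_RFP, and 6.17, 4.80 and 5.97 on twi_actin_GFP. TwdlT gave 4.11, 4.06 and 6.24 on ap_GFP, 4.16, 5.03 and 3.6 on slou_RFP, and 6.02, 4.33 and 4.32 on twi_actin_GFP. TwdlD reached 6.71 on slou_RFP replicate 2, against 4.41 to 5.38 on the other 8 arrays. These genes were chosen after their values were seen. Over the family, 12 of 19 Twdl genes spanned more than 1 log2 unit between their lowest and highest array, as did 12 of 22 Osi genes and 18 of 59 Cpr genes, against 34.9% of all genes with a probe set of their own.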
